A study of Homo sapiens with 6 samples.

Results

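The genes described here are the ephrins and their Eph receptors, the netrins with DCC, NEO1 and the UNC5 receptors, and the Slits with their Robo receptors. They were taken by symbol alone, as every Eph, ephrin, netrin, netrin-G, UNC5, Slit and Robo gene together with DCC and NEO1, and 41 of the 19923 protein-coding genes in the tables met the rule. Among them 9 encode EphA receptors, 5 EphB receptors, 5 A-class ephrins, 3 B-class ephrins, 6 netrins or netrin-Gs, 2 DCC and neogenin, 4 UNC5 receptors, 3 Slits and 4 Robo receptors. The cells were Kelly, a cultured line from a human neuroblastoma, labelled MYCN-amplified and of WT genotype, and polyadenylated RNA was sequenced. Transfection with lipofectamine lasted 72 hours, with control siRNA in 3 libraries (siControl) and METTL3 siRNA in the other 3 (siMETTL3). METTL3 carries the methyltransferase activity that places N6-methyladenosine on mRNA, and the comparison addresses how its depletion changes the transcriptome. The transfection was transient, a single cell line was used, and the labels do not say that the libraries of a group came from separate cultures, so the p-values measure the spread between these libraries, which may be technical.

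These genes encode the cues and receptors that steer growing axons and migrating cells. Ephrins are membrane-bound ligands that meet Eph receptor tyrosine kinases on a touching cell, and signals run into both cells. A-class ephrins are held by a lipid anchor and bind mostly EphA receptors, whereas B-class ephrins span the membrane and bind mostly EphB receptors. Netrins are secreted cues that attract through DCC and neogenin and repel through UNC5 receptors, while netrin-Gs are lipid-anchored relatives that bind LRRC4-family proteins instead. Slits are secreted repellents read by Robo receptors. Neuroblastoma arises from neural crest cells of the sympathetic lineage, which use such cues as they migrate and extend axons.

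The libraries held between 15430000 and 21565013 counts, of which the 41 genes took 0.462% to 0.575%. METTL3 itself was at 53.5, 52.8 and 56.2 CPM (counts scaled to a common library size after TMM normalisation) in siControl and at 32.99, 31.8 and 34.3 CPM in siMETTL3, 61.0% of the control level (edgeR FDR 4.68e-06). All 11 noradrenergic neuroblastoma markers were detected, and their summed level was 7137 to 7531 CPM in siControl and 10492 to 11069 CPM in siMETTL3. The part of this marker shift in the results below was not tested. The summed Schwann markers stayed at or under 8.65 CPM in any library, the endothelial ones at or under 9.84, the epithelial ones at or under 8.36 and the immune ones at or under 3.06. The 8 fibroblast and mesenchymal markers summed to 95.8 to 109.2 CPM in siControl and 100.5 to 106.6 CPM in siMETTL3, most of it PDGFRB (84.8 and 82.8 CPM on average). Of these 8, PRRX1 rose with a log2 fold change of 0.90 and COL1A1 of 0.86 (FDR in edgeR 0.0103 and 0.0200). Endothelial VWF rose as well, with a log2 fold change of 0.68 (FDR in edgeR 0.00592). COL3A1 went the other way at -0.64, as did endothelial PECAM1 at -0.95 and KDR at -0.94 (FDR in edgeR 0.0629, 0.143 and 0.131). None of these falls was past the FDR threshold, nor were PDGFRA at 0.18 and PDGFRB at -0.03 (FDR in edgeR 0.340 and 0.736). The part of these markers in the results was not tested. No listed marker in the tables was at 0 in every library. In such bulk samples, fewer cells of a type and less RNA per cell cannot be told apart. The library siControl replicate 3 was the shallowest and lay farthest from the others of its group, at -37.0 on the first principal component against -18.0 and -24.4.

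Of the 41 genes, 37 had enough counts to be tested. Higher levels in siMETTL3 were called for 12 of the 37 and lower levels for 9, so 56.8% were called, where 37.8% of all 15311 tested genes were called (18.6% higher and 19.2% lower; edgeR, FDR under 0.05). The rule for these genes was set with earlier results of these data known, so this share is not independent of the data. The median log2 fold change of the 37 was 0.24, against -0.0021 over all tested genes, and the median absolute change was 0.40 against 0.21. Without siControl replicate 3 the median of the 37 was 0.13, and with an offset for the gene span length it was 0.16, against -0.05 over all genes. Changes of at least 2-fold were called for 2 of them, NTNG2 and NTNG1, where 3.35% of all tested genes passed both limits. In 24 of the 37 genes the libraries of one group all lay above those of the other, against 49.9% of all tested genes. The EphA, netrin, UNC5, Slit and Robo classes each held called genes in both directions. The called genes of the EphB, EFNB and DCC and NEO1 classes were all higher, 2 in each class, and the only called A-class ephrin, EFNA4, was lower.

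**Figure D1:**
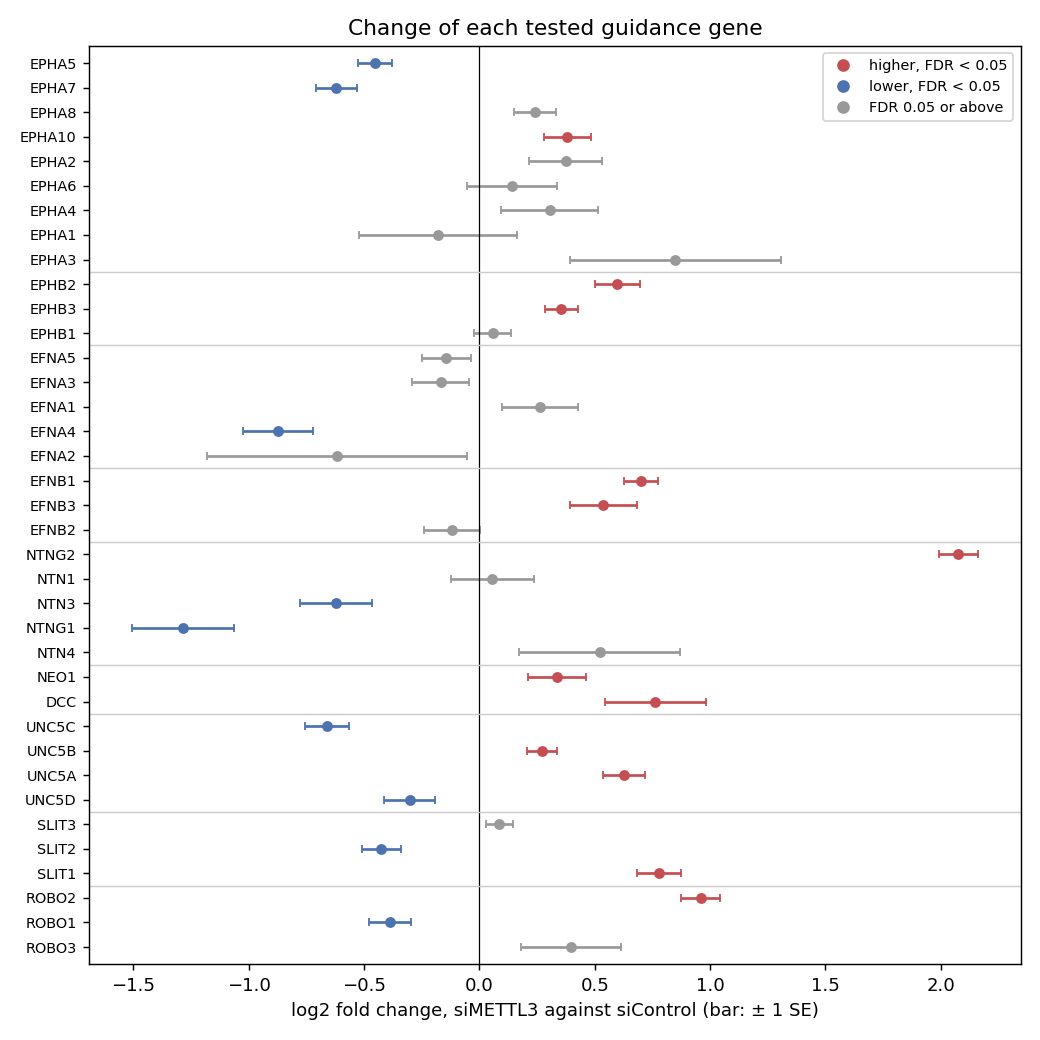
Log2 fold change of siMETTL3 against siControl for the 37 tested guidance genes, ordered by class and then by level, with bars of ± 1 SE from the fit over 6 libraries. Red points are higher and blue points lower at an FDR under 0.05; NTNG2 lies farthest to the right at 2.08 and NTNG1 farthest to the left at -1.29.

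The Slit-Robo genes held the members with the most counts and moved in opposite directions. ROBO2 and ROBO1 encode receptors for Slits and lie next to each other on chromosome 3, with no other listed gene in the 947 kb between them (GRCh38, ROBO2 at 75906695 to 77649964 on the plus strand, ROBO1 at 78597239 to 79767998 on the minus strand). ROBO2 was at 851, 925 and 1090 CPM in siControl and at 1979, 1777 and 1811 CPM in siMETTL3. All 3 siMETTL3 libraries thus lay well above the highest siControl library. ROBO2 rose 1.94-fold (log2 fold change 0.96, SE 0.084, edgeR FDR 3.25e-06), and by raw count it moved from between rank 29 and 41 of all genes in siControl to between rank 5 and 7 in siMETTL3. Counts cover the whole span with introns, 1743 kb for ROBO2, so such ranks depend on gene length. Per kilobase of span, ROBO2 was at 0.548 CPM in siControl, against 3.22 for UNC5B. ROBO1 was at 371, 375 and 484 CPM in siControl and at 318, 308 and 315 CPM in siMETTL3. The groups did not overlap, and siControl replicate 3 was the highest by a wide margin. ROBO1 fell by 0.39 on the log2 scale (SE 0.090, edgeR FDR 0.00505), and by 0.25 without siControl replicate 3 (edgeR FDR 7.51e-05). ROBO3, which encodes a divergent Robo receptor, was at 2.26 to 3.20 CPM in siControl and 3.22 to 4.18 CPM in siMETTL3 and was not past the threshold (edgeR FDR 0.167). ROBO4, known from endothelial cells, had 0 counts in every siControl library, which allows up to 3 counts in each, and 4, 6 and 2 counts in siMETTL3. It was below the low-count filter, and without that filter it was just past the threshold (edgeR FDR 0.0484).

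RefSeq (GRCh38.p14) lists 2 start sites for ROBO2 that are 729 kb apart and 2 for ROBO1 that are 749 kb apart. A count over the whole gene span cannot tell which start was used. The counted ROBO2 span begins at 75906695, upstream of both ROBO2 starts, and no window is shown for that position. The 300 bases around each start, 250 before it and 50 after it, are shown because these neighbours changed in opposite directions. Capitals mark the GC box GGGCGG on either strand, and none of the windows holds the E-box CACGTG.
ROBO2 upstream start, chr3:76310630-76310929, plus strand: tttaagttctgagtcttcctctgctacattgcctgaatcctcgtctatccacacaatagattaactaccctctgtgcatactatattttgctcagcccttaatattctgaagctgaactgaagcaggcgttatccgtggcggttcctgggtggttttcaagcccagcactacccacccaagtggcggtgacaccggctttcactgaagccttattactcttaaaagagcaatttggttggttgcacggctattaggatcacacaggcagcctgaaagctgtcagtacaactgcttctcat
ROBO2 downstream start, chr3:77039849-77040148, plus strand: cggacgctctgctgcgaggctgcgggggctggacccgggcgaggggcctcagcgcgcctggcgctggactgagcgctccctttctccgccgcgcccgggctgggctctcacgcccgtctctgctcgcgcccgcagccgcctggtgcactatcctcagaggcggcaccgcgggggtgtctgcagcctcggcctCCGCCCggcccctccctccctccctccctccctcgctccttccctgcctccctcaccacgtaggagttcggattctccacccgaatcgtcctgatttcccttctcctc
ROBO1 upstream start, chr3:79767949-79768248, minus strand: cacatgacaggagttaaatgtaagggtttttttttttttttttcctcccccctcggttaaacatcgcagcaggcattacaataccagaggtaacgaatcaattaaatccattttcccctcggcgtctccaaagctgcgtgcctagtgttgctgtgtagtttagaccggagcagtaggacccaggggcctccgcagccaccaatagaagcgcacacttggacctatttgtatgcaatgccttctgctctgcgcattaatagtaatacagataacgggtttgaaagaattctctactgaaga
ROBO1 downstream start, chr3:79019410-79019709, minus strand: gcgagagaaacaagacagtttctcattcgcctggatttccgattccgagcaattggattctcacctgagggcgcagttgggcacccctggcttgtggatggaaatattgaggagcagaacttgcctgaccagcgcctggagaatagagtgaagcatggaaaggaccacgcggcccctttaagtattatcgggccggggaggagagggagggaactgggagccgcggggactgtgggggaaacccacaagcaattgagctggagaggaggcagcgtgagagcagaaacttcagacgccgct
The downstream ROBO2 window holds 1 GC box and the other ROBO windows shown hold none. Over all members, 38 of 47 RefSeq promoter windows (34 of the 41 genes had one) held GGGCGG, or 80.9%, against 62.8% of the 17323 windows of tested genes and 45.0% of all 35116 windows of this length. A gene could have several windows, so the windows are not all separate promoters. Those of EPHB2 overlapped and shared a GC box, as did overlapping windows of EPHA7. CACGTG was in 1 of the 47, that of EPHA8, against 8.84% of the windows of tested genes.

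The Slit ligands split as well. SLIT1 (chromosome 10, 96998038 to 97185959) was at 33.3, 29.3 and 24.8 CPM in siControl and at 48.3, 50.6 and 51.9 CPM in siMETTL3. Each siMETTL3 library was above every siControl library, and SLIT1 rose with a log2 fold change of 0.78 (SE 0.095, edgeR FDR 3.09e-05). The read-through gene ARHGAP19-SLIT1 overlaps 17.5% of the SLIT1 span, and its own log2 fold change was -0.05 (edgeR FDR 0.550). It extends beyond SLIT1, to 97292637, so that value does not give the change in the shared stretch. Reads there counted for both genes and cannot be told apart. SLIT2 (chromosome 4, 20251905 to 20620561) was at 78.4, 82.7 and 101.3 CPM in siControl and at 65.1, 66.3 and 63.5 CPM in siMETTL3. Again the groups did not overlap, and SLIT2 fell by 0.43 on the log2 scale (SE 0.084, edgeR FDR 0.00155). SLIT3 (chromosome 5, 168661733 to 169301129), with the largest raw count of the 41 genes in every siControl library, was at 1349, 1284 and 1417 CPM in siControl and at 1426, 1426 and 1447 CPM in siMETTL3. The siMETTL3 libraries lay just above the siControl ones, but the log2 fold change of 0.09 was not past the threshold (SE 0.058, edgeR FDR 0.262). Without siControl replicate 3 it was 0.12 and past the threshold (edgeR FDR 0.0317), whereas it was 0.05 without siControl replicate 2 (edgeR FDR 0.617) and 0.03 with an offset for the gene span length (edgeR FDR 0.670).

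SLIT2 and SLIT3 are also host genes: their spans hold the hairpins of miR-218, on the host's strand, and both loci give the same mature miR-218-5p (chr4:20528299-20528319, plus strand, and chr5:168768211-168768231, minus strand; RefSeq, GRCh38.p14). The mature sequence is shown with its seed, bases 2 to 8, in capitals, together with the matches to that seed, AAGCACA, that were found in the 3′ untranslated regions of the canonical ROBO and SLIT transcripts (GENCODE release 44), the match in capitals.
miR-218-5p: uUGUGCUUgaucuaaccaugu
ROBO1, 3′ untranslated region position 971: ttttttggttttaaAAGCACAa
ROBO2, position 456: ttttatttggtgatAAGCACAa
ROBO2, position 2901: atcatgtccaatacAAGCACAg
SLIT2, position 299: ctgaagacaagcagAAGCACAt
SLIT2, position 408: cactaggacataccAAGCACAt
SLIT3, position 2796: ggcaagagtatgggAAGCACAc
A match was found in 11 of the 37 tested members (29.7%) and in 15.6% of 14563 tested genes, with median lengths of these regions of 2415 and 1295 bases. The miRNA was not measured in these libraries. The called members with a match were EPHB2 and ROBO2, which rose, and EPHA5, EPHA7, ROBO1, SLIT2 and UNC5D, which fell. The others, EFNB2, EPHA8, EPHB1 and SLIT3, were not past the threshold. The part of these matches in the changes was not tested.

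Among the netrin receptors, all 4 UNC5 genes were called, where 37.8% of all tested genes were, with UNC5A and UNC5B higher and UNC5C and UNC5D lower. The UNC5 proteins are the repulsive netrin receptors and can trigger cell death when no netrin is bound. UNC5C (chromosome 4, 95162504 to 95549206) was at 792, 810 and 1052 CPM in siControl and at 570, 537 and 572 CPM in siMETTL3. Even the lowest siControl library exceeded the highest siMETTL3 library, and UNC5C fell by 0.66 on the log2 scale (SE 0.096, edgeR FDR 0.000299). UNC5A (chromosome 5, 176810519 to 176880898) went the other way, from 51.7, 43.5 and 38.2 CPM to 68.0, 72.0 and 66.8 CPM. It rose with a log2 fold change of 0.63 (SE 0.093, edgeR FDR 0.000200). UNC5B, which was at 277 to 315 CPM in siControl and 341 to 371 CPM in siMETTL3, rose by 0.27 on the log2 scale (edgeR FDR 0.00455), and of 0.16 with an offset for the gene span length (edgeR FDR 0.0461). UNC5D was at 26.1 to 36.5 CPM in siControl and 23.5 to 25.8 CPM in siMETTL3 and fell by 0.30 on the log2 scale (edgeR FDR 0.0453). This last call was near the threshold and was not made without siControl replicate 3 (log2 fold change -0.17, edgeR FDR 0.147) or without any of the siMETTL3 libraries (edgeR FDR from 0.0902 to 0.160). It was also lost with upper quartile or total count scaling (edgeR FDR 0.0585 and 0.0598) and with limma-voom (FDR 0.0623), so in 7 of 18 other fits.

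DCC and NEO1 encode the attractive netrin receptors DCC and neogenin, and both were expressed at low levels. DCC (chromosome 18, 52340197 to 53535903) was at 2.92, 2.50 and 2.26 CPM in siControl and at 5.49, 3.58 and 4.09 CPM in siMETTL3. These values rest on 34 to 113 raw counts per library. DCC rose with a log2 fold change of 0.76 (SE 0.22, edgeR FDR 0.0137), but missed the threshold without siControl replicate 2 (edgeR FDR 0.0529) or siMETTL3 replicate 1 (log2 fold change 0.57, edgeR FDR 0.0912). NEO1 (chromosome 15, 73051710 to 73305205) was at 9.23, 9.51 and 7.83 CPM in siControl and at 10.6, 11.9 and 11.2 CPM in siMETTL3. The groups did not overlap, and NEO1 was only just past the threshold (log2 fold change 0.34, SE 0.12, edgeR FDR 0.0462). It was not called in 12 of 18 other fits, among them each of the 6 that left out a library (edgeR FDR up to 0.158).

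The largest log2 fold changes among the 37 tested genes were those of the netrin-G genes, again in opposite directions. Netrin-Gs do not bind the netrin receptors and act at synapses and along axons. NTNG2 (chromosome 9, 132161676 to 132244526) was at 16.9, 18.1 and 14.5 CPM in siControl and at 66.4, 72.1 and 71.2 CPM in siMETTL3. No siMETTL3 library came near the siControl range, and NTNG2 rose 4.22-fold (log2 fold change 2.08, SE 0.086, edgeR FDR 1.80e-09). NTNG1 (chromosome 1, 107140007 to 107483458) was at 7.14, 8.41 and 13.0 CPM in siControl and at 4.47, 3.81 and 3.26 CPM in siMETTL3. The siControl values were spread, with replicate 3 the highest, but none reached down to the siMETTL3 values. NTNG1 fell to 41.0% of the control level (log2 fold change -1.29, SE 0.22, edgeR FDR 0.000619), and with any single library removed its log2 fold change ranged from -1.46 to -1.01.

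The netrins proper were weakly expressed. NTN3 (chromosome 16, 2471297 to 2474145) was at 7.42, 9.21 and 7.70 CPM in siControl and at 4.76, 5.97 and 5.06 CPM in siMETTL3. It fell by 0.62 on the log2 scale with no overlap between the groups (SE 0.15, edgeR FDR 0.00615). NTN1, which encodes the classical midline attractant netrin-1, was at 5.91 to 10.5 CPM in siControl and 8.16 to 10.1 CPM in siMETTL3, so that the groups overlapped (log2 fold change 0.06, edgeR FDR 0.837). Its sign differed between fits. NTN4 was at 0.649 to 1.73 CPM in siControl and 1.47 to 1.99 CPM in siMETTL3 (edgeR FDR 0.263). NTN5 had 0 to 5 raw counts per library and was not tested.

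**Figure D2:**
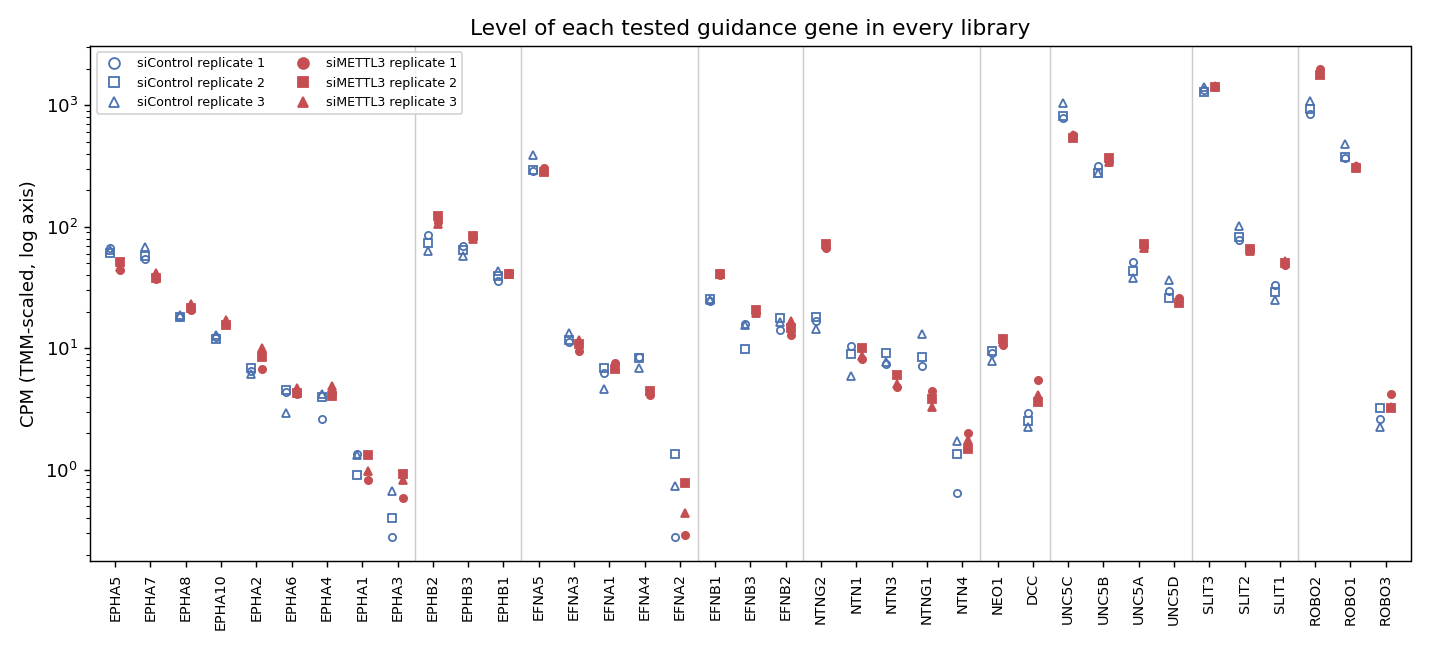
Level of each of the 37 tested guidance genes in CPM on a log axis, by class, in 3 siControl libraries (open blue symbols) and 3 siMETTL3 libraries (filled red symbols), the symbol shape giving the replicate number. ROBO2, SLIT3 and UNC5C stand highest, and the groups of NTNG2 lie apart at 14.5 to 18.1 and 66.4 to 72.1 CPM.

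Among the B-class ephrins, EFNB1 and EFNB3 were higher and EFNB2 was not past the threshold. EFNB1 (X chromosome, 68829021 to 68842160) had closely matched replicates, with 24.3, 25.6 and 25.1 CPM in siControl and 40.0, 41.1 and 40.9 CPM in siMETTL3. It rose 1.63-fold (log2 fold change 0.70, SE 0.074, edgeR FDR 8.84e-06). EFNB3 (chromosome 17, 7705202 to 7711372) was at 15.7, 9.96 and 15.5 CPM in siControl and at 19.3, 20.8 and 19.5 CPM in siMETTL3. The siControl replicate 2 library was well below the other two. EFNB3 rose with a log2 fold change of 0.54 (SE 0.15, edgeR FDR 0.0116), which was 0.35 without siControl replicate 2 (edgeR FDR 0.0323) while removing siMETTL3 replicate 2 left it short of the threshold (edgeR FDR 0.0547). EFNB2 was at 14.1 to 17.6 CPM in siControl and 13.0 to 16.7 CPM in siMETTL3 (log2 fold change -0.12, edgeR FDR 0.485).

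Of the tested EphB receptors, EPHB2 and EPHB3 were higher and EPHB1 was not past the threshold. EPHB2 (chromosome 1, 22710839 to 22921500) was at 86.1, 73.5 and 63.6 CPM in siControl and at 110.0, 122.8 and 106.1 CPM in siMETTL3. With no overlap between the groups, EPHB2 rose 1.51-fold (log2 fold change 0.60, SE 0.098, edgeR FDR 0.000579). EPHB3, at 57.5 to 70.0 CPM in siControl and 79.9 to 83.7 CPM in siMETTL3, rose by 0.36 on the log2 scale (edgeR FDR 0.00159). EPHB1 was at 35.7 to 43.4 CPM in siControl and 40.6 to 41.6 CPM in siMETTL3 and missed the threshold (edgeR FDR 0.613, log2 fold change 0.06). EPHB4 and EPHB6 had too few counts to be tested, with 0 to 8 and 0 to 2 raw counts per library.

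The A-class ephrins and EphA receptors included most of the genes that were not past the threshold. EFNA4 (chromosome 1, 155063737 to 155069553) was at 8.53, 8.31 and 6.90 CPM in siControl and at 4.13, 4.41 and 4.48 CPM in siMETTL3. It fell to 54.6% of the control level, with no overlap between the groups (log2 fold change -0.87, SE 0.15, edgeR FDR 0.000532). The neighbouring EFNA3 was at 11.2 to 13.3 CPM in siControl and 9.52 to 11.7 CPM in siMETTL3 (log2 fold change -0.17, edgeR FDR 0.310). A listed gene named AL691442.2 covers 99.8% of the EFNA4 span and 91.6% of the EFNA3 span and itself had a log2 fold change of -0.47 (edgeR FDR 0.00323). Reads there were counted for each gene they overlapped, so reads of AL691442.2 transcripts cannot be told apart from those of the 2 ephrins. EFNA5 (chromosome 5, 107376889 to 107670937), by far the most abundant ephrin gene by count, was at 287, 294 and 393 CPM in siControl and at 305, 285 and 292 CPM in siMETTL3. Only siControl replicate 3 stood apart, and the log2 fold change was -0.14 (edgeR FDR 0.333); it was 0.02 without that library (edgeR FDR 0.828) and -0.22 and past the threshold with an offset for the gene span length (edgeR FDR 0.0412). EFNA1, at 4.58 to 7.63 CPM over all 6 libraries, and EFNA2, at 0.278 to 1.35 CPM, were not past the threshold (edgeR FDR 0.228 and 0.424).

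EPHA7 and EPHA5, the EphA genes with the most counts, both fell. EPHA7 (chromosome 6, 93240020 to 93419559) was at 53.8, 57.5 and 68.4 CPM in siControl and at 37.5, 37.8 and 41.4 CPM in siMETTL3. The log2 fold change was -0.62 (SE 0.088, edgeR FDR 0.000120). EPHA5 (chromosome 4, 65319563 to 65670495) was at 67.5, 61.3 and 64.5 CPM in siControl and at 43.8, 51.4 and 46.3 CPM in siMETTL3. Here siControl replicate 3 was the middle value, and EPHA5 fell by 0.45 on the log2 scale (SE 0.074, edgeR FDR 0.000343). EPHA10, which encodes a receptor thought to lack kinase activity, was at 12.01 to 12.9 CPM in siControl and 15.6 to 17.1 CPM in siMETTL3 and rose (log2 fold change 0.38, edgeR FDR 0.00931). EPHA8, at 18.2 to 18.9 CPM in siControl and 20.5 to 23.3 CPM in siMETTL3, was just short of the threshold although the groups did not overlap (log2 fold change 0.24, edgeR FDR 0.0517). It was past the threshold in 5 of 18 other fits (edgeR FDR 0.0364 to 0.0485), among them that without siControl replicate 3 (0.0430). The 5 others, EPHA1, EPHA2, EPHA3, EPHA4 and EPHA6, were at no more than 10.1 CPM in any library and were not past the threshold (edgeR FDR from 0.0797 for EPHA2 to 0.721 for EPHA1). Without siMETTL3 replicate 1, EPHA2 was past it (log2 fold change 0.51, edgeR FDR 0.0318). EPHA3 rests on 6 to 20 raw counts per library. Its log2 fold change of 0.85 had an SE of 0.46.

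**Figure D3:**
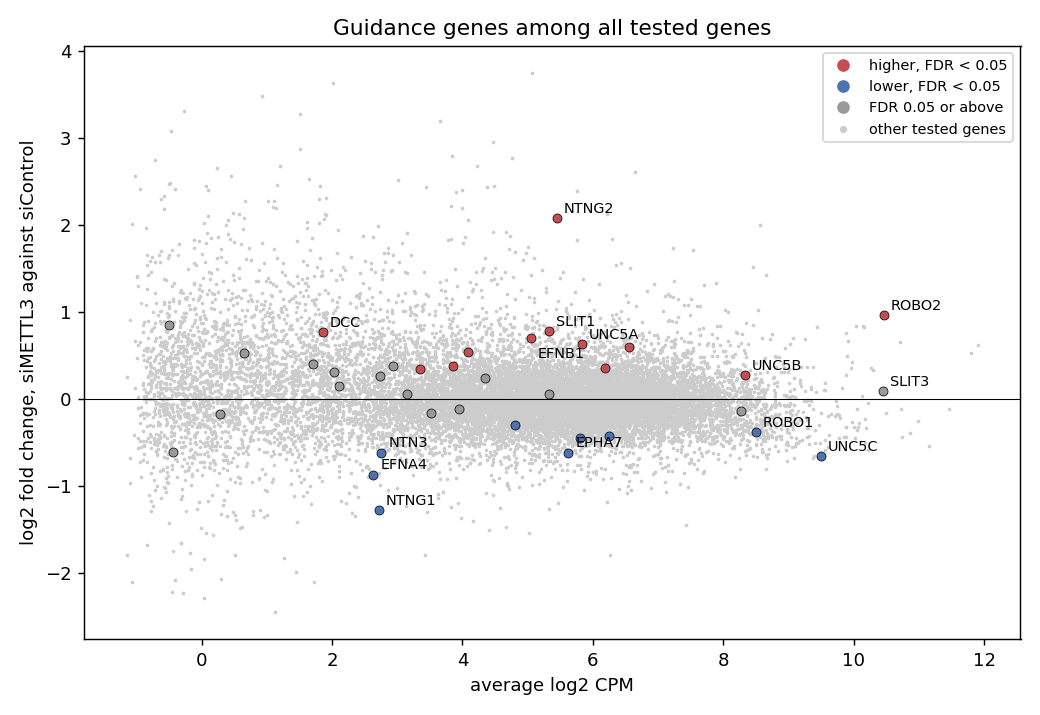
Log2 fold change of siMETTL3 against siControl over the average log2 CPM for all 15311 tested genes (light grey), with the 37 guidance genes as outlined points, red where higher, blue where lower and dark grey where not past an FDR of 0.05. ROBO2 and UNC5C lie near the upper end of average log2 CPM, at log2 fold changes of 0.96 and -0.66.

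Because related genes moved apart, the balance between them differed between the groups. A ratio of raw counts within a library needs no scaling between libraries, and only its difference between the groups is read here, since the genes differ in length. These pairs were chosen after the values had been seen, so no test is given. The ratio of ROBO2 to ROBO1 counts was 2.29, 2.47 and 2.25 in siControl and 6.23, 5.78 and 5.75 in siMETTL3. That of NTNG2 to NTNG1 was 2.36, 2.15 and 1.12 in siControl and 14.9, 18.9 and 21.8 in siMETTL3. For UNC5C to UNC5B it was 2.51, 2.90 and 3.80 in siControl and 1.67, 1.45 and 1.68 in siMETTL3. The siControl ratios of UNC5C to UNC5A were 15.3, 18.6 and 27.6, and those in siMETTL3 were 8.38, 7.45 and 8.56. For SLIT1 to SLIT2 it was 0.425, 0.355 and 0.244 in siControl and 0.741, 0.763 and 0.817 in siMETTL3. In none of these pairs did the groups overlap. That follows from the choice of pairs, since both genes of each moved in opposite directions without overlap of their own. Together, ROBO2, SLIT3, UNC5C, ROBO1, UNC5B and EFNA5 made up 85.2% to 87.3% of the counts of the 41 genes in every library. Within that total the share of ROBO2 went from 18.3% to 20.2% in siControl to 32.2% to 34.6% in siMETTL3, and that of UNC5C from 17.0% to 19.5% to 9.72% to 10.3%.

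**Figure D4:**
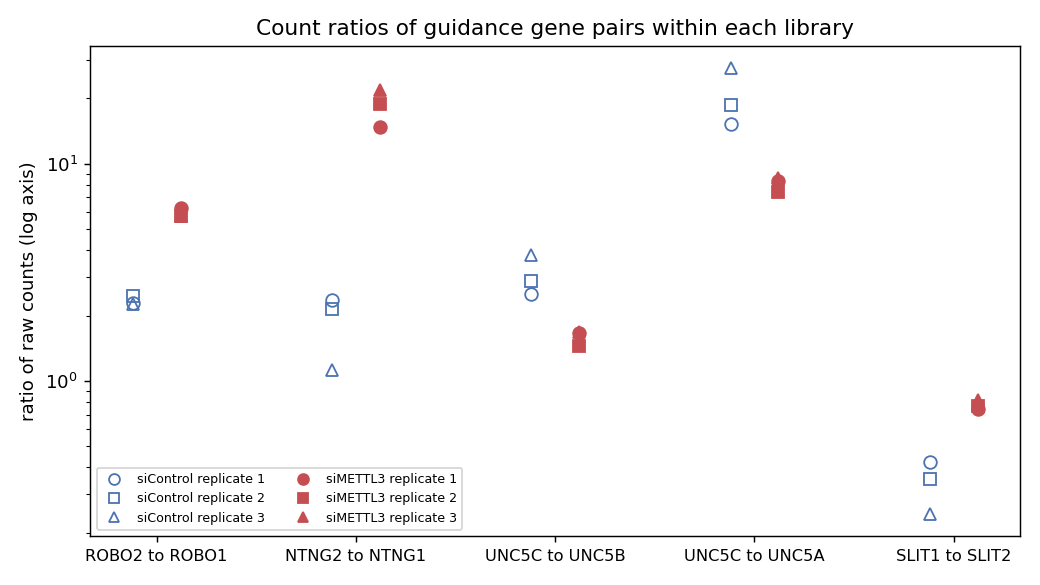
Ratio of raw counts for 5 pairs of guidance genes within each library, on a log axis, in siControl (open blue) and siMETTL3 (filled red), the symbol shape giving the replicate number. The ratio of ROBO2 to ROBO1 sits between 2.25 and 2.47 in siControl and between 5.75 and 6.23 in siMETTL3.

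Levels of different genes were compared per kilobase of merged exons (GENCODE release 44). In siControl the order was SLIT3 at 94.7 ± 4.65 CPM per kb (SD, n = 3), UNC5C at 82.8 ± 13.6, ROBO2 at 57.3 ± 7.36, EFNA5 at 56.6 ± 10.4, UNC5B at 42.5 ± 3.11 and ROBO1 at 37.1 ± 5.82 CPM per kb. The intervals of 1 SD overlapped between SLIT3 and UNC5C, between ROBO2 and EFNA5, and between UNC5B and ROBO1. The next gene, EPHB3, was at 14.1 ± 1.38 CPM per kb. In siMETTL3 ROBO2 was at 111.4 ± 6.50 CPM per kb and SLIT3 at 100.5 ± 0.860, followed by UNC5C at 52.4 ± 1.86, UNC5B at 51.3 ± 2.56 and EFNA5 at 51.2 ± 1.75 CPM per kb, which did not differ beyond their spread. The counts include intronic reads, so this order is approximate. Per kilobase of the whole span, UNC5B at 3.22 and EPHB3 at 3.10 CPM per kb came highest in siControl.

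Members that are neighbours in the genome did not all get the same call. ROBO2 rose and ROBO1 fell, EFNA4 fell while EFNA3, 9.28 kb away, was not past the threshold, and EPHB2 rose while EPHA8, 107 kb away, just missed it. Many of the genes are very long. Of the 12 members with a span over 300 kb, 2 were higher and 6 lower, while of the 25 shorter ones tested, 10 were higher and 3 lower. Over all tested genes, 217 of 810 with such long spans were higher and 151 lower, and 2632 of the 14501 with shorter spans were higher and 2786 lower. The sequence GGACT, a common form of the motif that the METTL3 complex methylates, was counted on the sense strand of the canonical transcript. Its median density was 1.38 per kb in the 37 tested members and 0.929 per kb over 14591 tested genes. It was 1.53 per kb in the higher members (0.887 to 2.83) and 0.984 per kb in the lower ones (0.474 to 3.19), against 0.992 and 0.861 per kb in all higher and all lower genes. These ranges overlapped widely. Methylation itself was not measured in the counts analysed here.

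The shallowest library, siControl replicate 3, was the highest siControl library for 6 of the 9 lower members and the lowest for 8 of the 12 higher members. Over all called genes it was the highest for 53.6% of the lower and the lowest for 58.6% of the higher genes. Without it, 13 members were higher and 8 lower. The part of this library's depth in the results was not tested.

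The genes that carry these signals into the cell, or act beside the receptors, were described from a list of 63 symbols of co-receptors, further ligands, proteases, adaptors and regulators of small GTPases. A total of 60 were in the tables and all 60 were tested; of the other 3, EPHEXIN1 and GRB4 are older names of the listed NGEF and NCK2, and FLRT1 was not analysed here. Of the 60, 23 were higher and 10 lower, or 55.0% called against 37.8% of all tested genes, and their median log2 fold change was 0.11. This list, too, was made with earlier results of these data known. With an offset for the gene span length, 17 were higher and 15 lower. SRGAP1, a GTPase-activating protein that binds Robo receptors, fell from 67.2 ± 3.28 to 37.9 ± 1.37 CPM (SD, n = 3; log2 fold change -0.83, edgeR FDR 1.02e-06). INPPL1, the lipid phosphatase SHIP2 that binds Eph receptors, fell with a log2 fold change of -0.44. FLRT2, a membrane ligand of UNC5 receptors, fell by 0.45 and RASA1, a Ras GTPase-activating protein downstream of Eph receptors, by 0.35 on the log2 scale. ANKS1A, an adaptor of Eph receptors, rose from 173 ± 23.0 to 350.0 ± 10.2 CPM (SD, n = 3; log2 fold change 1.01, edgeR FDR 2.15e-06). VASP, an actin regulator, rose from 22.3 ± 1.15 to 40.1 ± 3.62 CPM (SD, n = 3; log2 fold change 0.84, edgeR FDR 8.84e-06). ABL2, a tyrosine kinase of the cytoskeleton, and KALRN, an exchange factor for small GTPases, rose with log2 fold changes of 0.43 and 0.44.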

How the data were processed

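The authors deposited 1 table of raw read counts per library. Per the file headers, featureCounts 1.5.3 counted reads over the whole gene (introns included) with a protein-only GENCODE release 33 annotation; a read over several genes counted for each, and neither strand nor fragment counting was set. The headers name each library an input and show a picard step whose settings are not given in the sources used here. Per the submitters' processing notes, HISAT2 2.1.0, Trimmomatic 0.36 and FastQC 0.11.5 were also used, with GRCh38; their settings are not given in the sources used here.

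Genes were filtered with filterByExpr, scaled by TMM and tested with edgeR 4.0.16 (quasi-likelihood F-test, robust dispersions, 6 libraries, no covariate) in R 4.3.3. The FDR is the Benjamini-Hochberg value over all 15311 tested genes, with a threshold of 0.05; the SE is the absolute log2 fold change over the square root of F. The alternatives were 3 other scalings, 2 other filters, DESeq2 1.42.0, limma-voom 3.58.1, dispersions without the robust option, a replicate block, a loess offset for span length (alone and with the block), each library left out, and genes without overlaps. On 10 simulated draws of siMETTL3 against siControl, edgeR recovered 88.2% of 200 genes simulated with a 2-fold change. Of the calls 8.32% were false, more than the FDR threshold of 0.05 allows. Only 200 of 15311 genes were changed there, while 37.8% were called in the data. The recovery therefore does not cover smaller changes or so wide a shift.

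The members and lists were chosen with earlier results of these data known. Named with every library's value were METTL3, the most changed called members (up to 8 in each direction, average log2 CPM 1 or more) and the most abundant gene of each class; other members were given by range, and of the signalling list up to 4 called genes in each direction with the smallest FDR were named. Replicates were not copies of each other (chi-square per degree of freedom 3.05 to 16.1, where sampling noise gives about 1). All 41 spans overlapped the GENCODE release 44 gene of the same symbol.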

Additional observations from a re-analysis of the deposited data

How the results depend on the processing

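Of 21 called members, 17 stayed past the threshold in every fit that tested them, and none of the 21 changed sign in the 18 other fits. DCC, EFNB3, NEO1 and UNC5D were each lost in at least 1. Leaving out each library in turn gave 10 to 13 higher and 8 to 9 lower members, 19 to 27 higher and 8 to 13 lower genes of the signalling list, 2091 to 3178 higher and 2119 to 3216 lower genes in all, and -0.74 to -0.69 for METTL3. Replicate numbers were not taken as pairs, since same-numbered libraries deviated together by correlations of only 0.0401, 0.0494 and 0.0671, although each library correlated best with its own number. The replicate block gave 6166 called genes in place of 5786, with 12 higher and 9 lower members, and changed the call of no member. On genes without overlaps, where 9517 were tested, 1852 were higher and 1897 lower, and 6 of 40 tested signalling genes were lower; fewer genes were tested there, METTL3 and 6 tested members were left out, and 9 members were higher and 8 lower. The span length offset moved the share of higher genes among all calls from 49.2% to 37.7% and gave 11 higher and 10 lower members. Signs reversed only for members that were not called. NTN1 was at -0.043 with the span length offset and -0.016 with it and the replicate block. With each library left out in turn, the log2 fold change ranged from -0.13 to 0.24 for NTN1 (-0.13 without siControl replicate 3, -0.040 without siMETTL3 replicate 2), from -0.22 to 0.016 for EFNA5 and from -0.014 to 0.25 for EPHA6 (both reversed without siControl replicate 3), from -0.012 to 0.13 for EPHB1 (reversed without siControl replicate 1) and from -1.09 to 0.093 for EFNA2 (reversed without siControl replicate 2); the cause was not tested. Members under about 1 CPM rest on few counts, which limits the precision of their values.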
